A study of Mus musculus with 8 samples.

Results

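The genes that build, divide, fuse and supply mitochondria were followed on 8 one-colour arrays of mouse haematopoietic stem cells (HSC), the self-renewing bone marrow cells from which every blood lineage descends. The members were every non-control probe whose gene name begins with Timm or Tomm and a digit, or is one of 16 further names of mitochondrial biogenesis, fusion, fission and the prohibitins. This gave 69 probes of 35 genes among 41174 probes on the array. They comprised 13 probes of 7 TOM genes, 21 of 12 TIM genes, 3 of 2 prohibitin genes, 10 of 4 coactivator and nuclear factor genes, 9 of 5 genes of mitochondrial DNA copying and transcription, 8 of 3 fusion genes and 5 of 2 fission genes. The rule uses gene names and no threshold on a measured value. The TOM and TIM groups also rest on names alone. Whether each product, such as that of Tomm34, is part of the complex was not checked.

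The cells were donor-derived HSC, either E47 knockout (KO) or wild type (WT), sorted by flow cytometry from secondary or from primary recipient mice of a transplantation. E47 is a basic helix-loop-helix transcription factor, 1 of the splice products of the gene listed as Tcfe2a. The 4 groups, each with 2 arrays, were KO cells in secondary recipients, WT cells in secondary recipients, KO cells in primary recipients and WT cells in primary recipients. The sources used here do not give how the allele was made, the age of the mice, their conditioning or how many were pooled. They also do not say whether replicate arrays came from different sorts or repeat the same RNA, and the p-values cover array-to-array spread alone, which may be technical. RNA of all groups passed through a PCR amplification of cDNA before labelling with Cy3. In such bulk RNA, fewer cells of a type and less RNA per cell cannot be told apart.

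Nearly all mitochondrial proteins are encoded in the nucleus, made in the cytosol and imported. The TOM complex is the gate of the outer membrane, the TIM23 complex takes proteins with a presequence across the inner membrane, and the TIM22 complex, fed by small Tim chaperones, inserts carrier proteins into it. Coactivators of the PGC-1 family with the nuclear factors NRF1 and GABPA drive the genes of biogenesis, and TFAM, POLRMT and POLG transcribe and copy mitochondrial DNA. Mitofusins and OPA1 fuse the membranes, while DRP1, the product of Dnm1l, divides them. HSC are known for a low reliance on respiration at rest.

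Levels below are scaled log2 levels, the log2 of a probe's processed signal minus the 75th percentile of its array. The 75th percentile was 19.3 signal units on replicate 2 of KO primary and 34.9 on replicate 2 of WT primary, against 318.7 to 847.3 on the other 6 arrays, and these low-signal arrays had 35.0% and 41.3% of all probes marked by the scanner software as well above background. All 4 WT arrays lay on 1 slide, the KO primary arrays on another and the KO secondary arrays on a further one, which means that slide and genotype cannot be told apart, whereas WT secondary and WT primary cells were compared within 1 slide. In KO cells slide and recipient cannot be told apart either. The recipient comparison over both genotypes and the interaction share this limit through their KO arrays. The 2 Tcfe2a probes gave KO against WT changes of 1.30 and -1.59 in secondary recipients and 4.79 and -1.95 in primary recipients, with limma adjusted p of 0.97 or above in each. The sources used here do not place these probes inside or outside the deletion, so they check nothing about the labels. The HSC marker list had 11 and 11 of its 11 genes well above background in KO secondary, 10 and 10 in WT secondary, 11 and 6 in KO primary and 10 and 6 in WT primary cells. Its summed signal was 34298 and 35000 in KO secondary and 69634 and 57114 in WT secondary cells. In primary cells it was 10853 and 232 in KO and 7912 and 65832 in WT. A list of 11 neutrophil genes moved with the recipient: 10 and 9 were well above background in KO secondary and 8 and 8 in WT secondary cells, with a summed signal of 4847 to 10968, against 11 and 10 in KO primary and 11 and 11 in WT primary cells, with a summed signal of 77177 to 382314. In WT secondary cells Lcn2, Retnlg and S100a8 were not well above background. The part of either list in the recipient results below was not tested.

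The probes on which the results turn are printed first, because probes of the same gene gave different answers and lie at different places of the genome. Each is 60 bases long, written 5′ to 3′. All lie on the minus strand of mouse build mm8, as do their genes, so a lower coordinate is nearer the gene's 3′ end. Placement of the probes in exons or transcripts was not determined. Both Timm17a probes are on chromosome 1, at chr1:137120854-137120913 for A_52_P72378 and at chr1:137118020-137118079 for A_51_P167843. The Timm23 probe lies at chr14:31009413-31009472. Of the Dnm1l probes, A_51_P185701 lies at chr16:16225816-16225875, A_52_P66333 at chr16:16227577-16227856, where its 60 bases cover 280 bases of genome, and A_52_P554790 at chr16:16250396-16250455. The Tfb2m probes lie at chr1:181364779-181364838 for A_51_P374499, of 26.7% G and C, and at chr1:181365898-181365957 for A_52_P69325, of 36.7% G and C.
Timm17a A_52_P72378: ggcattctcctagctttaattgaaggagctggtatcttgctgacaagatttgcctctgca
Timm17a A_51_P167843: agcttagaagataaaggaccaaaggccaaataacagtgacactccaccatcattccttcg
Timm23 A_51_P511623: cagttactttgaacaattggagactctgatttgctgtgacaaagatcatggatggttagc
Dnm1l A_52_P66333: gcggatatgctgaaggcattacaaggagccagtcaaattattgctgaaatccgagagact
Dnm1l A_51_P185701: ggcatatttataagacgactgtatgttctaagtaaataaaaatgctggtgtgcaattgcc
Dnm1l A_52_P554790: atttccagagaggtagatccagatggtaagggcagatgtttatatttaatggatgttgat
Tfb2m A_51_P374499: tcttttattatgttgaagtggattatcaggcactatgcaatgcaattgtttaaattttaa
Tfb2m A_52_P69325: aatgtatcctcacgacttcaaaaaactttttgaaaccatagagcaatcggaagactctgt

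Of the 69 member probes, 63 passed the detection filter, which asks for a signal well above background on both replicates in 1 group or more, and were tested, among 32775 probes tested in all. The other 6 were 2 probes of Mfn1 and 1 each of Dnm1l, Opa1, Tfam and Tfb1m, and these were well above background on 0 to 2 arrays. Every one of the 35 genes kept at least 1 tested probe, and 20 member probes were well above background on all 8 arrays. The share of the 69 probes well above background was 95.7% and 85.5% in KO secondary, 92.8% and 89.9% in WT secondary, 75.4% and 34.8% in KO primary and 87.0% and 46.4% in WT primary cells. The median level of the 63 tested member probes, relative to the median of all tested probes on the same array, was 1.03 and 0.87 in KO secondary, 1.06 and 0.89 in WT secondary, -0.20 and -0.36 in KO primary and 0.23 and -0.00 in WT primary cells. In this measure the 4 secondary arrays lay above the 4 primary arrays, but each primary group holds a low-signal array, so members could pass the filter through the secondary groups where they were high, and the order supports nothing about the members.

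**Figure D1:**
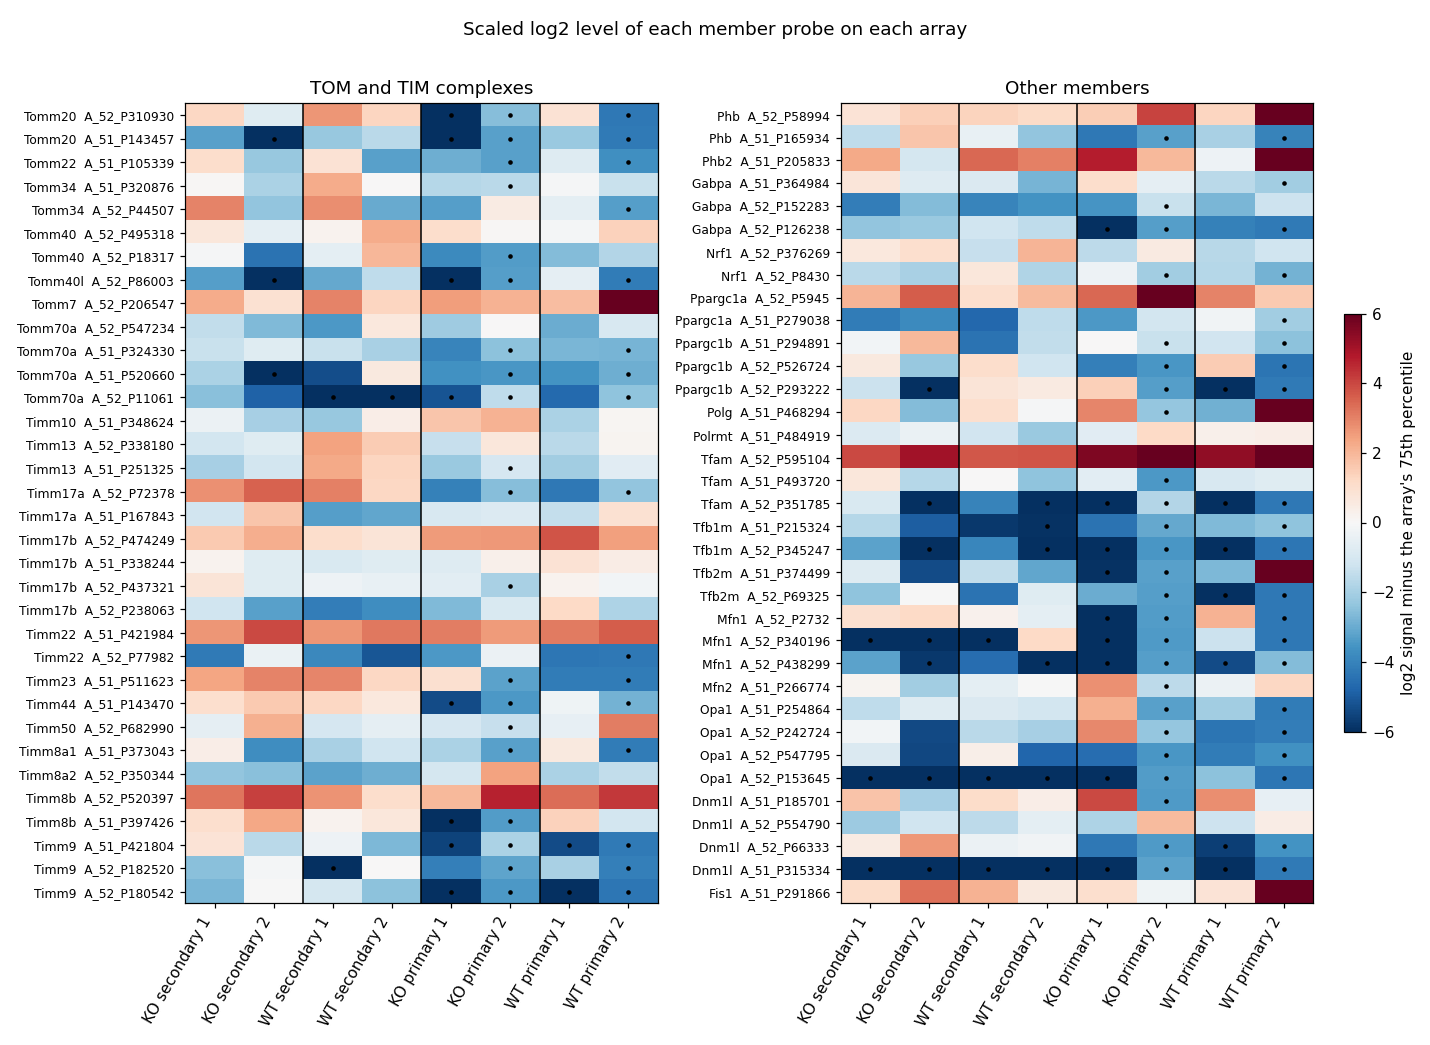
Heat map of the scaled log2 level (log2 signal minus the 75th percentile of the array) of all 69 member probes, in rows by role and gene, on the 8 arrays, in columns by group and replicate. A dot marks a probe not well above background on that array. The dots gather in the KO primary and WT primary columns, above all in replicate 2, where 24 and 32 of the 69 probes were well above background.

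Secondary recipients were set against primary recipients over both genotypes, 4 arrays against 4, to see which members differ after a further transplantation. At a limma adjusted p under 0.05 over all probes, 1 of the 63 member probes rose, a probe of Timm17a, which encodes a partner of the TIM23 channel, and none fell; 0.272% of all tested probes passed. At an unadjusted p under 0.05 the members held 13 probes (11 higher, 2 lower), or 20.6%, against 17.7% of all probes. The 2 groups of 4 arrays did not overlap, with secondary higher, for 7 member probes (11.1%) against 4% of all probes, and with secondary lower for 3 member probes (4.76%) against 10.7% of all probes. Members could pass the filter through the secondary groups alone, where they were high, so these counts support nothing about the members. The median member change was 0.73 relative to the median probe, and 41 of 63 lay above it, but over the 20 members well above background on all 8 arrays the median was 0.07, with 11 of 20 above. Over the 19 alternative settings it ran from 0.07 to 1.30. All changes below are given relative to the median probe, which itself moved by -0.55 in this comparison.

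Timm17a probe A_52_P72378 stood at 2.76 and 3.56 in KO secondary, 3.02 and 1.24 in WT secondary, -4.05 and -2.58 in KO primary and -4.31 and -2.36 in WT primary cells. Every secondary array lay above every primary array, and on the primary side only replicate 1 of each genotype was well above background. Its change was 6.52 (SE 0.84, limma adjusted p = 0.0490, 4 arrays against 4). Within the slide that holds all WT arrays, the change of WT secondary against WT primary cells was 6.26 (SE 1.25, adjusted p = 0.307). Between the KO groups, which lay on different slides, it was 6.86 (SE 1.25, adjusted p = 0.631). No probe had a lower adjusted p in this comparison, but the adjustment can give several probes the same value, so this does not rank the probe first. With quantile normalization the lowest limma adjusted p of any probe was 0.00277, against 0.0131 for this probe. With any 1 of the 8 arrays left out the call was lost: the change then ranged from 6.22 to 6.99 and the adjusted p from 0.0661 to 0.246. Without both low-signal arrays the change was 7.25 with an adjusted p of 0.0638.

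The other Timm17a probe, A_51_P167843, nearer the 3′ end, did not show this. It had levels of -1.13 and 1.65 in KO secondary, -3.32 and -3.11 in WT secondary, -0.97 and -0.80 in KO primary and -1.41 and 0.94 in WT primary cells, and was well above background on all 8 arrays. Over both genotypes the recipients overlapped, while in WT cells secondary arrays were the lower ones, and the pooled change was -0.37 (SE 1.13, adjusted p = 0.678). Both probes carry the same accession in the array design, so the gene's answer depends on which probe is read.

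Timm23, the channel that Timm17a and Timm17b accompany, has 1 probe on the array. Its levels were 2.38 and 3.0 in KO secondary, 2.93 and 1.25 in WT secondary, 0.95 and -3.21 in KO primary and -4.20 and -4.18 in WT primary cells. Secondary arrays again lay above primary ones without overlap, but the change of 5.60 (SE 1.08) missed the threshold with an adjusted p of 0.0978, and without both low-signal arrays it was 4.44 with an adjusted p of 0.296. Timm44, which ties the import motor to the channel, had 1.01 and 1.56 in KO secondary, 1.24 and 0.64 in WT secondary, -5.35 and -3.47 in KO primary and -0.27 and -2.86 in WT primary cells, of which only replicate 1 of WT primary was well above background. This is a change of 4.65 (SE 1.0, limma adjusted p = 0.139). The Timm44 probe passed the filter only through the secondary groups, where it was high. Timm50, the receptor of the same complex, had a change of 0.50 (SE 1.21), with a change of 2.37 in KO and -1.28 in WT cells.

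The second isoform of the channel partner, Timm17b, has 4 tested probes, whose changes ran from -1.48 to 1.0. Its probe A_52_P474249 lay at 1.56 and 2.19 in KO secondary, 1.05 and 0.79 in WT secondary, 2.55 and 2.58 in KO primary and 3.79 and 2.44 in WT primary cells. All secondary arrays were lower than all primary ones, yet the change was only -0.89 (SE 0.73, adjusted p = 0.321), and it was 0.19 with normexp background correction. Probe A_52_P238063 had -1.18 and -3.28 in KO secondary, -4.14 and -3.74 in WT secondary, -2.66 and -0.91 in KO primary and 1.19 and -1.85 in WT primary cells, so that only the WT groups were apart (change -2.82, SE 1.42, adjusted p = 0.389).

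The small Tim chaperones did not share a direction. Timm9, a carrier chaperone of the intermembrane space, has 3 probes. All 4 secondary arrays held A_52_P180542 and A_51_P421804 well above background, and none of the 4 primary arrays did. Secondary levels were at least 3.49-fold and 5.32-fold higher (limma adjusted p = 0.203 and 0.244). Both probes passed the filter only through the secondary groups, where they were high, so these bounds support nothing about the members. The third Timm9 probe, A_52_P182520, had a change of 1.12 (SE 1.78), with 2.71 in KO and -0.39 in WT cells. Timm10, the partner with which Timm9 forms its hexamer, showed the opposite sign in the KO cells: -0.35 and -2.01 in KO secondary and -2.26 and 0.39 in WT secondary, against 1.68 and 2.07 in KO primary and -1.92 and 0.10 in WT primary cells, so that KO secondary lay below KO primary (change -2.66, SE 1.35, adjusted p = 0.753) and the WT groups overlapped. Timm8a2 had -2.36 and -2.50 in KO secondary, -3.20 and -2.91 in WT secondary, -1.04 and 2.39 in KO primary and -1.88 and -1.46 in WT primary cells. It was lower on every secondary array (change -1.70, SE 0.91, adjusted p = 0.271). The insertion channel Timm22 kept a narrow range of 2.57 to 3.96 on all 8 arrays with its probe A_51_P421984 (change 0.57, SE 0.70).

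Timm8b, another small Tim, again split by probe. Probe A_51_P397426 read 0.99 and 2.34 in KO secondary, 0.23 and 0.68 in WT secondary, -7.15 and -3.36 in KO primary and 1.36 and -1.11 in WT primary cells. Only the KO primary arrays lacked it well above background, so KO secondary cells were at least 26.9-fold higher than KO primary cells (adjusted p = 0.631). Probe A_52_P520397 of the same gene, by contrast, read 3.23 and 4.11 in KO secondary, 2.69 and 1.03 in WT secondary, 1.93 and 4.62 in KO primary and 3.37 and 4.24 in WT primary cells. Its KO groups overlapped, and its WT secondary arrays lay below its WT primary arrays (change -1.16, SE 1.29, adjusted p = 0.468).

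Fission gave the second-lowest p among the members. Dnm1l, the dynamin-related GTPase that cuts mitochondria, had levels of 0.48 and 2.60 in KO secondary, -0.37 and -0.19 in WT secondary, -4.31 and -3.42 in KO primary and -5.67 and -3.59 in WT primary cells with probe A_52_P66333. Only replicate 1 of KO primary was well above background among the 4 primary arrays, and no primary array reached a secondary one. The change was 5.43 (SE 0.84, adjusted p = 0.0614), and WT secondary cells were at least 10.4-fold higher than WT primary cells within their slide. The other tested Dnm1l probes differed: A_51_P185701 had 1.70 and -1.98 in KO secondary, 1.09 and 0.41 in WT secondary, 3.94 and -3.39 in KO primary and 2.77 and -0.49 in WT primary cells, with a change of 0.15 (SE 1.64). Probe A_52_P554790 had -2.19 and -1.18 in KO secondary, -1.56 and -0.60 in WT secondary, -1.83 and 1.90 in KO primary and -1.24 and 0.43 in WT primary cells, a change of -0.65 (SE 0.98). Neither separated the recipients, and the largest difference between Dnm1l probes in this comparison was 6.08 on the log2 scale. The array design lists A_52_P554790 under a different sequence record from the other tested Dnm1l probes. Fis1, an outer membrane protein that takes part in fission, had 1.08 and 3.33 in KO secondary, 2.09 and 0.60 in WT secondary, 1.01 and -0.24 in KO primary and 0.80 and 9.04 in WT primary cells, where replicate 2 of WT primary stands far above the other 7 arrays.

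**Figure D2:**
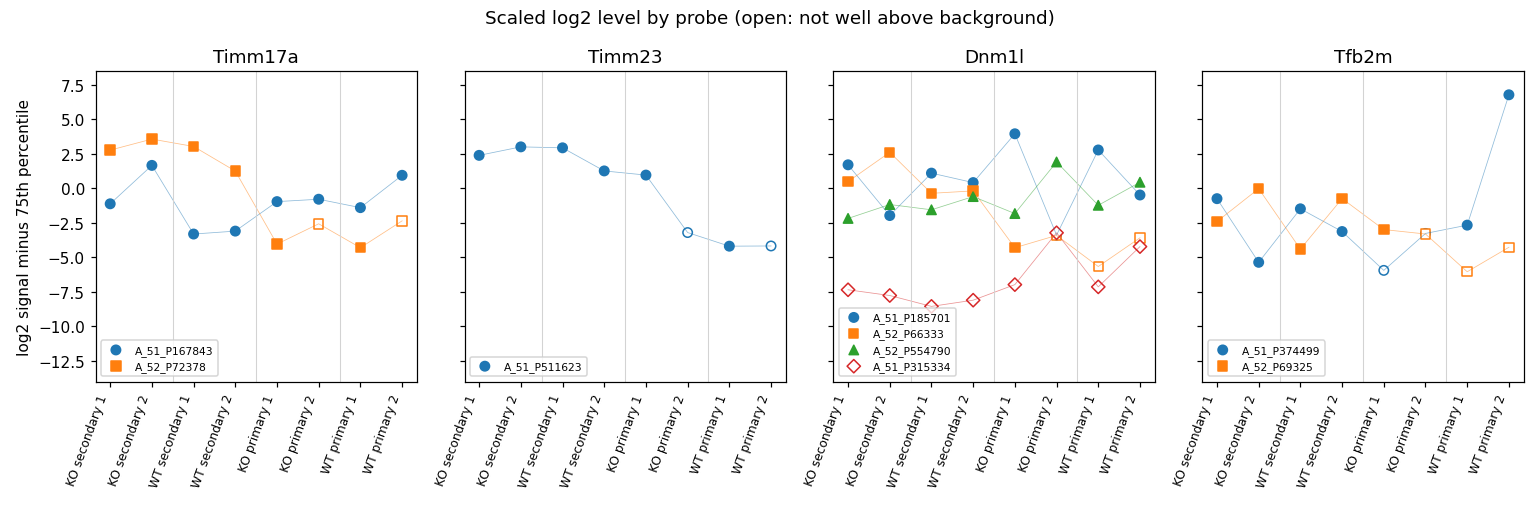
Scaled log2 levels (y axis) on the 8 arrays (x axis, by group and replicate) for every probe of Timm17a, Timm23, Dnm1l and Tfb2m; filled symbols are well above background and open ones are not, and the lines join points of the same probe. Timm17a A_52_P72378 lies between 1.24 and 3.56 on the secondary arrays and between -4.31 and -2.36 on the primary ones, while the other Timm17a probe overlaps between them over both genotypes.

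Of the members, 3 were in the same direction at an unadjusted p under 0.05 in both genotypes, whose recipient comparisons share no array: Timm17a A_52_P72378, Timm23 and Dnm1l A_52_P66333. These 3 are of 9 such members in KO and 7 in WT cells, or 33.3% and 42.9%, and over all probes 791 of 2027 in KO and of 4066 in WT, or 39.0% and 19.5%. In neither primary group did any of these 3 probes exceed background clearly on more than 1 array. They entered the test only through the secondary groups, where they were high. Their agreement between the genotypes therefore supports nothing about the members. In KO cells 9 of 63 members passed an unadjusted p under 0.05 (8 higher, 1 lower), against 6.18% of all probes, and in WT cells 7 of 63 (5 higher, 2 lower), against 12.4% of all probes. None passed the limma adjusted threshold in either genotype, and 0% of all probes did. The groups of 2 arrays did not overlap, with secondary higher, for 19 members in KO (14% of all probes) and 16 in WT cells (18.5% of all probes). With secondary lower they were apart for 6 members in KO (25.4% of all probes) and 13 in WT cells (36.4% of all probes). Here too members could pass the filter through the secondary groups alone, so the higher counts support nothing about the members. The median member change was 0.79 in KO and 0.84 in WT cells, where the median probe moved by -0.39 and -0.79. Over the 20 members well above background on all 8 arrays the medians were 0.39 in KO and 0.02 in WT cells. Of the 63 members, 39 lay on the same side of the median probe in both genotypes, or 61.9%, against 62.1% of all probes.

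Among the TOM probes, grouped by name, 11 of 13 lay above the median probe in secondary cells, with a median change of 0.99. Of the 13, 2 (15.4%) passed an unadjusted p under 0.05, against the 17.7% of all probes. In KO cells alone 8 of 13 lay above, with a median of 0.06, and in WT cells 11 of 13, with a median of 1.78. Tomm20, a presequence receptor, had a change of 4.95 (SE 1.41, adjusted p = 0.239) with probe A_52_P310930 and of 0.99 (SE 1.28) with A_51_P143457. Tomm22, the central receptor, had a change of 2.29 (SE 1.23), and the channel Tomm40 by 2.66 (SE 1.11) and 0.58 (SE 0.83) with its 2 probes, none of which passed. Without both low-signal arrays 13 of 13 TOM probes lay above the median probe, with a median of 1.31. TOM probes too could pass the filter through the secondary groups alone, where they were high, and several belong to the same gene. These counts and medians therefore support nothing about the members.

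Fusion genes showed no common movement in KO cells, where the median of 5 tested probes was -0.19. In WT cells all 5 probes lay above the median probe (median 2.50). The filter limit given for the TOM probes holds here too. Mfn1, which tethers outer membranes, was not well above background on either KO primary array with probe A_52_P2732 and was at least 17.8-fold higher in KO secondary cells (adjusted p = 0.713). Mfn2, its relative, had 0.17 and -2.08 in KO secondary, -0.59 and -0.02 in WT secondary, 2.73 and -1.59 in KO primary and -0.34 and 1.26 in WT primary cells. Its groups overlapped.

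For genes of mitochondrial DNA no direction held. Over both genotypes 5 of 7 tested probes lay below the median probe in secondary cells, but 4 of 7 lay above it in KO cells (median 0.79) and 2 of 7 in WT cells (median -1.25), and over the alternative settings the pooled median ran from -1.44 to 1.28. Tfam, which packages mitochondrial DNA and starts its transcription, had 3.97 and 5.05 in KO secondary, 3.73 and 3.79 in WT secondary, 5.61 and 7.33 in KO primary and 5.34 and 7.33 in WT primary cells with probe A_52_P595104. All secondary arrays were lower (change -1.72, SE 0.80, adjusted p = 0.260), but the sign turned with quantile normalization, where the change was 0.0620, so no direction can be given. The other tested Tfam probe had a change of 1.14 (SE 1.04). Tfb1m, a methyltransferase of mitochondrial ribosomal RNA, had -1.70 and -4.97 in KO secondary, -5.78 and -5.92 in WT secondary, -4.41 and -3.05 in KO primary and -2.66 and -2.41 in WT primary cells. The WT groups did not overlap (change -2.52, SE 1.32, adjusted p = 0.391), and the KO groups did. Polrmt, the mitochondrial RNA polymerase, had a change of -0.91 (SE 0.76).

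Coactivators and nuclear factors had 1 of 10 probes past an unadjusted p under 0.05, a smaller share than the 17.7% of all probes, Gabpa A_52_P126238, at 3.36 (SE 0.88, adjusted p = 0.231), while the other 2 Gabpa probes had a change of 0.42 and -0.81. Nrf1, the partner factor of biogenesis genes, had a change of 2.10 (SE 0.94) and 1.11 (SE 0.93) with its 2 probes. The prohibitins, ring-forming chaperones of the inner membrane, split by probe: Phb A_51_P165934 had a change of 3.26 (SE 1.05, adjusted p = 0.268) and Phb A_52_P58994 by -1.60 (SE 1.18). Phb2 had 2.26 and -1.05 in KO secondary, 3.44 and 3.02 in WT secondary, 4.71 and 1.94 in KO primary and -0.29 and 9.67 in WT primary cells, so that the WT primary arrays alone spanned nearly the whole range.

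**Figure D3:**
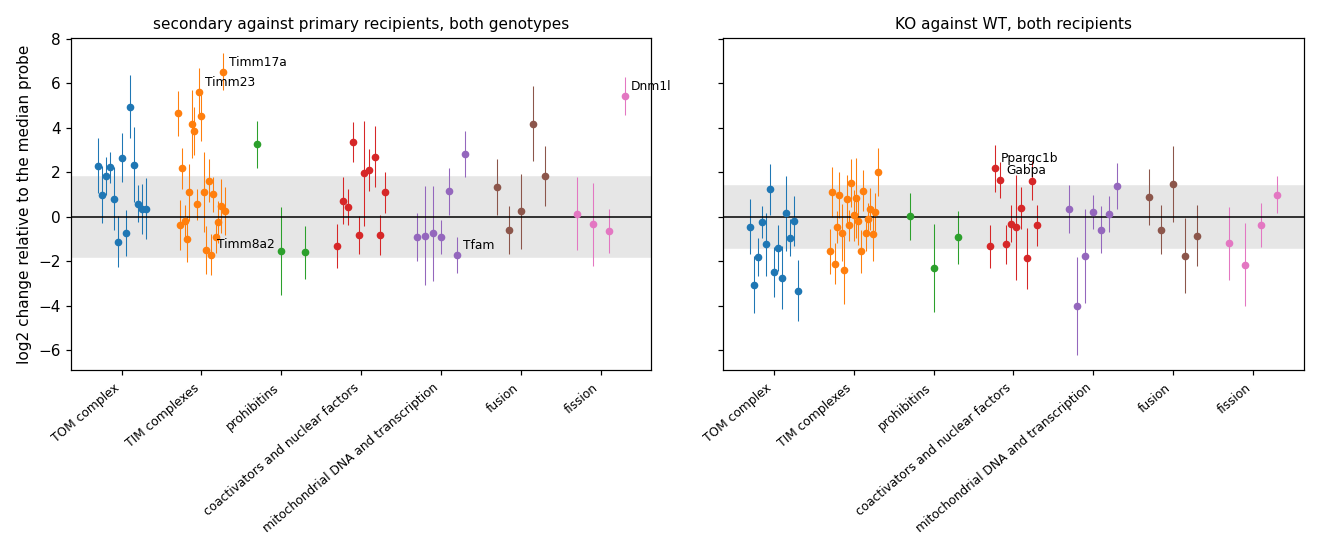
Log2 change relative to the median probe (y axis) with its standard error for the 63 tested member probes, grouped by role (x axis), for secondary against primary recipients over both genotypes (left) and for KO against WT over both recipients (right); the grey band is 1 SD of the changes of all 32775 tested probes. Timm17a A_52_P72378 at 6.52, Timm23 at 5.60 and Dnm1l A_52_P66333 at 5.43 lead the left panel, and 11 of 13 TOM probes lie below 0 in the right panel.

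KO cells were set against WT cells over both kinds of recipient to ask which members differ without E47. None of the 63 member probes passed the limma adjusted threshold and 0% of all probes did; 2 members passed an unadjusted p under 0.05 (3.17%), both higher in KO, against 4.59% of all probes. The median member change was -0.39, with 39 of 63 probes below the median probe, and it ran from -0.74 to -0.17 over the alternative settings. The 4 KO arrays lay above the 4 WT arrays for 1 member (1.28% of all probes) and below them for 0 (0.467% of all probes).

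The TOM probes, grouped by name, lay lower in KO cells by count. Of 13, 11 were below the median probe, with a median change of -1.24 and none past an unadjusted p under 0.05. This median stayed below 0 in all 19 alternative settings, from -1.74 to -0.63, and was -0.96, with 12 of 13 probes below, without both low-signal arrays. The medians of the fission genes (-1.69 to -0.10), the prohibitins (-1.79 to -0.19) and all members (-0.74 to -0.17) also stayed below 0 in all 19. The sign is therefore not particular to the TOM genes, and the settings reuse the same arrays. Median scaling, the series matrix, the replicate block and slide as a random block left the all-member median at -0.39, its reported value. The 19 are thus not separate checks. Tomm40l, a relative of the channel Tomm40, had -3.30 and -7.83 in KO secondary, -3.08 and -1.55 in WT secondary, -7.03 and -3.28 in KO primary and -0.53 and -4.20 in WT primary cells (change -3.32, SE 1.37, adjusted p = 0.867). Only 1 of 4 KO arrays was well above background, against 3 of 4 WT arrays. Tomm20 probe A_51_P143457 showed the same marks, with -3.27 and -7.84 in KO secondary, -2.29 and -1.61 in WT secondary, -7.03 and -3.26 in KO primary and -2.23 and -4.25 in WT primary cells (change -3.06, SE 1.28, adjusted p = 0.867). In both, the low-signal WT array sits among the KO values. The KO levels of -7.83, -7.03 and -3.28 for Tomm40l and of -7.84, -7.03 and -3.26 for Tomm20 were not well above background. Their likeness is thus no independent agreement of the 2 probes, and the size of both changes is uncertain.

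Tomm7, a small subunit that tunes the assembly of the gate, had 2.24 and 0.90 in KO secondary, 2.98 and 1.29 in WT secondary, 2.51 and 2.10 in KO primary and 1.87 and 6.02 in WT primary cells. It is among the 11 probes below the median probe (change -1.40, SE 1.03, adjusted p = 0.873), with KO and WT arrays that overlap. Tomm70a, the receptor for carrier precursors, has 4 probes, whose changes over both recipients ran from -1.24 to 1.24. In secondary recipients they ran from -1.99 to 2.47. Probe A_52_P11061 had -2.49 and -4.87 in KO secondary, -6.85 and -6.27 in WT secondary, -5.19 and -1.51 in KO primary and -4.69 and -2.43 in WT primary cells, and A_51_P520660 had -1.88 and -6.02 in KO secondary, -5.32 and 0.59 in WT secondary, -3.65 and -3.47 in KO primary and -3.60 and -2.94 in WT primary cells. Probe A_52_P547234 had -1.46 and -2.63 in KO secondary, -3.46 and 0.65 in WT secondary, -2.15 and 0.01 in KO primary and -2.97 and -0.94 in WT primary cells, and A_51_P324330 had -1.34 and -0.73 in KO secondary, -1.34 and -1.94 in WT secondary, -3.96 and -2.47 in KO primary and -2.76 and -2.81 in WT primary cells. The first of these was not well above background in WT secondary or KO primary cells, and no direction held across the 4.

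The 2 member probes past an unadjusted p under 0.05 both belong to the regulators of biogenesis. Gabpa, the DNA-binding subunit of an ETS-family factor, had 0.73 and -0.76 in KO secondary, -0.86 and -2.80 in WT secondary, 1.04 and -0.52 in KO primary and -1.59 and -2.10 in WT primary cells with probe A_51_P364984. Every KO array lay above every WT array (change 1.66, SE 0.81, adjusted p = 0.867), although KO -0.76 and WT -0.86 nearly touch, and the other Gabpa probes had a change of -0.31 and -1.24. Ppargc1b, a coactivator of the PGC-1 family, had -0.19 and 1.93 in KO secondary, -4.44 and -1.47 in WT secondary, 0.02 and -1.33 in KO primary and -1.14 and -2.44 in WT primary cells with A_51_P294891 (change 2.18, SE 1.05, adjusted p = 0.867). The founding member of that family, Ppargc1a, had 2.03 and 3.61 in KO secondary, 1.0 and 1.91 in WT secondary, 3.43 and 6.04 in KO primary and 2.97 and 1.57 in WT primary cells with A_52_P5945 (change 1.62, SE 0.88, adjusted p = 0.867). Within each kind of recipient its KO arrays lay above its WT arrays, and its other probe had a change of -1.32 (SE 0.98).

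Probes of Ppargc1b disagreed by 4.04 in this comparison, second to the 5.39 of Tfb2m, and by 9.04 in secondary recipients, more than those of any other member gene there. Probe A_52_P293222 had -1.27 and -7.86 in KO secondary, 0.77 and 0.52 in WT secondary, 1.43 and -3.29 in KO primary and -7.38 and -4.24 in WT primary cells, and A_52_P526724 had 0.60 and -2.26 in KO secondary, 1.04 and -1.21 in WT secondary, -4.08 and -3.47 in KO primary and 1.53 and -4.37 in WT primary cells. In secondary recipients the 3 probes gave KO against WT changes from -5.62 to 3.42, and in primary recipients from -2.67 to 4.57. Over the 19 genes with more than 1 tested probe, 13 had probes on both sides of the median probe for KO against WT over both recipients, and the median difference between their lowest and highest probe was 1.96.

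In primary recipients alone, 1 of 63 members passed an unadjusted p under 0.05 (1.59%), lower in KO, against 3.68% of all probes, and none passed the limma adjusted threshold, as was so for 0% of all probes. KO arrays lay above WT arrays for 9 members (17.1% of all probes) and below for 10 (8.56% of all probes). The median member change was -0.84 with 43 of 63 below the median probe, and it was -0.15 with normexp background correction and -0.48 without KO primary replicate 2. The probe of lowest p was Timm8b A_51_P397426, not well above background in KO primary and at least 9.21-fold lower there than in WT primary cells (adjusted p = 1.0). Timm44 was likewise at least 2.86-fold lower in KO primary cells, where neither array was well above background. That bound rests on replicate 1 of WT primary, as the other WT primary array was not well above background either. On the higher side, Opa1, the inner membrane fusion GTPase, had 2.87 and -2.32 in KO primary against -4.36 and -4.13 in WT primary cells with A_52_P242724 (change 4.20, SE 2.12), beside -0.15 and -5.40 in KO secondary and -1.63 and -1.98 in WT secondary cells. Only replicate 1 of each primary group was well above background. Timm10 and Timm23 were also apart in that direction, with changes of 2.47 (SE 1.35) and 2.75 (SE 1.50), and all of these had an adjusted p of 1.0.

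Tfb2m, the factor that opens mitochondrial promoters, carried the largest negative change in primary recipients and rested on 1 array. Probe A_51_P374499 had -0.76 and -5.37 in KO secondary, -1.49 and -3.14 in WT secondary, -5.95 and -3.27 in KO primary and -2.67 and 6.77 in WT primary cells. The 6.77 belongs to the low-signal replicate 2 of WT primary, and KO primary was at least 34.9-fold lower (adjusted p = 1.0). Probe A_52_P69325 had -2.41 and -0.03 in KO secondary, -4.41 and -0.75 in WT secondary, -2.99 and -3.32 in KO primary and -6.05 and -4.28 in WT primary cells, a change of the opposite sign (1.70) in primary recipients. The same array also held the highest level of Fis1, Phb2, Polg (7.03), Phb A_52_P58994 (6.44) and Tomm7 (6.02). On it, 32 of 69 member probes were well above background, so high and absent members stood side by side there.

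In secondary recipients alone, 4 of 63 members passed an unadjusted p under 0.05 (2 higher, 2 lower, 6.35%), against 5.92% of all probes, and none passed the limma adjusted threshold, as was so for 0% of all probes. KO arrays lay above WT arrays for 16 members (31.9% of all probes) and below for 8 (13.4% of all probes), and the median change was -0.00. Timm13, a small Tim that works with Timm8a1, has 2 probes whose changes differed by only 0.45 here. A_51_P251325 had -1.99 and -1.11 in KO secondary against 2.26 and 1.31 in WT secondary cells (change -3.75, SE 1.12, adjusted p = 0.766), beside -2.25 and -1.02 in KO primary and -2.09 and -0.67 in WT primary cells. A_52_P338180 had -1.12 and -0.72 in KO secondary against 2.42 and 1.51 in WT secondary cells (change -3.30, SE 1.21, adjusted p = 0.841), beside -1.37 and 0.66 in KO primary and -1.62 and 0.15 in WT primary cells. With both probes the WT secondary arrays stood above the 6 others, and in primary recipients the genotypes overlapped. Timm17a A_51_P167843 was higher in KO secondary cells (change 3.06, SE 1.34, adjusted p = 0.810), as were Ppargc1b A_51_P294891 (change 3.42, SE 1.42, adjusted p = 0.800) and Tfb1m (change 2.11, SE 1.32, adjusted p = 0.896), whose groups did not overlap. None of these differences passed the adjusted threshold.

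**Figure D4:**
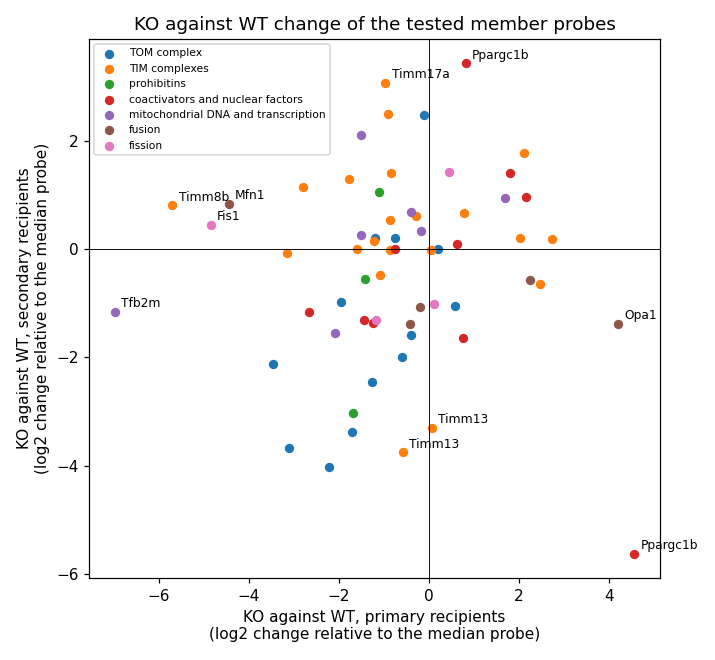
KO against WT log2 change relative to the median probe in primary recipients (x axis) and in secondary recipients (y axis) for the 63 tested member probes, coloured by role; labels mark probes with an unadjusted p under 0.05 in either or a change beyond 4 in primary recipients. The 2 axes share no array, 24 probes lie below 0 on both and 11 above 0 on both, and most TOM probes fall at the lower left.

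The change between genotypes was compared directly between recipients by the interaction of genotype and recipient. None of 63 members passed the limma adjusted threshold and 0% of all probes did; 2 passed an unadjusted p under 0.05 (3.17%), against 3.93% of all probes. They were Timm8b A_51_P397426 (6.38, SE 2.19) and Ppargc1b A_52_P293222 (-10.31, SE 3.43), both with an adjusted p of 0.993, and both contain a group in which no array was well above background. Timm17a A_51_P167843 at 3.90 (SE 1.89) and Timm13 A_51_P251325 at -3.30 (SE 1.59) followed, with the same adjusted p. For Timm17a A_52_P72378 the interaction was 0.78 (SE 1.77). KO and WT changes of the members lay on the same side of the median probe in both recipients for 35 of 63 (55.6%), against 51.6% of all probes.

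Other genes of these pathways, which the naming rule does not take in, were counted from 5 lists with 70 genes and 120 tested probes. None passed the limma adjusted threshold in any comparison. For secondary against primary recipients over both genotypes 21 of the 120 passed an unadjusted p under 0.05 (10 higher, 11 lower, 17.5%), beside the 17.7% of all probes. Among further import components, 10 of 31 did (6 higher, 4 lower), led by Oxa1l, an inner membrane insertase (change 4.76, SE 1.01, adjusted p = 0.132), and Pmpca, a subunit of the presequence peptidase (change 4.44, SE 1.07, adjusted p = 0.186). Bnip3l, a mitophagy receptor, was at 5.23 (SE 1.05, adjusted p = 0.110). Rhot2, an outer membrane GTPase of mitochondrial transport, was lower at -3.62 (SE 1.27, adjusted p = 0.223). For KO against WT, 12 of 120 passed in secondary recipients (8 higher, 4 lower, 10%) and 4 in primary recipients (1 higher, 3 lower, 3.33%), against 5.92% and 3.68% of all probes. Oma1, the protease that cuts OPA1 under stress, was higher in KO secondary cells (change 5.93, SE 1.24, adjusted p = 0.699), and Hspd1, the matrix chaperonin, lower in KO primary cells (change -7.90, SE 2.41, adjusted p = 1.0). Its co-chaperonin Hspe1 was the 1 higher probe there (change 5.27, SE 2.03, adjusted p = 1.0).

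What the members share beyond their names was looked for in promoters, from 250 bases before to 50 bases after the start of each gene (RefSeq, build GRCm38.p6), of which 32 of the 35 genes had 1 or more in the table. The letters CCGGAAG, the core that ETS factors such as GABPA bind, were found on either strand in 15 of the 32 (46.9%), against 9.93% of all 27025 genes in the table and 14.3% of the 11122 with a tested probe of the same name. The letters GCGCATGC, the core of the NRF1 site, were found in 4 of the 32 (12.5%), namely Opa1, Polrmt, Tfb2m and Timm13, against 3.05% of all genes and 4.50% of those with a tested probe. By role, the ETS letters were found in 3 of 5 TOM genes, 4 of 12 TIM genes, 3 of 5 genes of mitochondrial DNA, 2 of 2 fission genes, 1 of 3 fusion genes, 1 of 2 prohibitins and 1 of 3 regulators. A match of letters is no measured binding. The promoters of Timm23, with 2 ETS matches, of Timm17a, with no match to either, and of Polrmt, the sole member with both, are shown because the first 2 belong to partners in the same channel, and the Timm23 probe and 1 of the 2 Timm17a probes were higher on every secondary array; capitals mark matches on either strand, and all 3 genes lie on the minus strand, at chr14:32201842-32202141, chr1:135313688-135313987 and chr10:79746532-79746831.
Timm23 promoter: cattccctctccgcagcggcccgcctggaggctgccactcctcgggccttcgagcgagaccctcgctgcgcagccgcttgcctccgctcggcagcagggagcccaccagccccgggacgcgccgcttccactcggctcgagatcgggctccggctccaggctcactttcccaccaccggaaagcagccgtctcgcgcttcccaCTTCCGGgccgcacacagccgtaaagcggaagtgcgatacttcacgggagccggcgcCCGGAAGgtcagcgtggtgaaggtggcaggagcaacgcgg
Timm17a promoter: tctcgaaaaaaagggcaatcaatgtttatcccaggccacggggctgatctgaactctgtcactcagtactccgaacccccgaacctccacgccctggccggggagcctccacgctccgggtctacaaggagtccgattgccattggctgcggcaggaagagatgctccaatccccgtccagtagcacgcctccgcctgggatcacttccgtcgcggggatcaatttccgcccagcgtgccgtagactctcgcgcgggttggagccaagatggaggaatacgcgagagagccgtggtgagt
Polrmt promoter: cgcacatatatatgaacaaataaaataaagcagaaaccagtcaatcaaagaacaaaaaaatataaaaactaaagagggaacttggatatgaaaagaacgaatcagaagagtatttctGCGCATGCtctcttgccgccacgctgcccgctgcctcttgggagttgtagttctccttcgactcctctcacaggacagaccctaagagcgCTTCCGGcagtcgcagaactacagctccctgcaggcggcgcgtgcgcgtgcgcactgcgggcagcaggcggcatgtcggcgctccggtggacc

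The spread between replicates bears on every value above. The median difference between the 2 arrays of a group over the 63 members was 1.98 in KO secondary, 1.05 in WT secondary, 1.89 in KO primary and 1.88 in WT primary cells, against 1.22, 0.91, 1.79 and 1.62 over all tested probes.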

How the data were processed

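RNA of 8 donor-derived HSC samples was measured on 1-colour Agilent arrays. Per the file headers, the deposited scanner files hold spot intensity values on a linear scale from Agilent Feature Extraction 10.5.1.1, with a background-subtracted processed signal, and probe positions in mm8. The deposited series matrix holds, for each array, the ratio of that intensity to the array's median (column medians of 1), which was read from the values and used only as an alternative. Centring across genes was not found, and the direction is that of the intensity.

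Control spots and outlier spots were left out, spots of a probe averaged, and log2 of the processed signal taken minus the array's 75th percentile; no spot was saturated. Probes whose signal was well above background on both replicates in 1 group or more were fitted with limma 3.58.1 (R 4.3.3, lmFit and eBayes), in a 4-group fit with 4 residual degrees of freedom and an additive fit of genotype and recipient with 5. Benjamini-Hochberg adjustment ran over all 32775 probes, with a threshold of 0.05. From each change the median change over all tested probes was subtracted; p-values, and the higher and lower counts at an unadjusted p, refer to the change before this subtraction. A fold written as "at least" compares the brighter group's mean with the dimmer group's, each dim array taken at the higher of its lowest signal well above background and the probe's own. The fit was tested on simulated data first. The number of arrays limits the precision.

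The members, lists and tests were chosen with earlier results of these data known. Probes described on every array were, per comparison, the 3 of lowest p above and below the median probe (2 in the interaction), the probe of the highest mean level in each role, and the probes of the 2 genes whose probes differed most and by over 4; other members were added for their role after their values were seen. Of 69 member probes, 53 matched a RefSeq accession in the gene table, all under the same symbol, and 16 kept the file's name only. Alternatives were quantile normalization, normexp background correction (offset 50), scaling to the array median, the series matrix, other filters, 1 probe a gene, a replicate block, array weights, slide as a random block, and leaving out arrays.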

Additional observations from a re-analysis of the deposited data

How the results depend on the processing

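No member probe was called in 6 of the 7 comparisons under any of the 19 alternatives, so only the count for secondary against primary recipients over both genotypes, 1 in the setting reported, moved. It was 4 with quantile normalization (Timm17a A_52_P72378, Dnm1l A_52_P66333, Timm23 and Timm9 A_52_P180542, adjusted p 0.0131 to 0.0429), 2 with array weights and 2 with slide as a random block (Timm17a and Dnm1l in each). It was 0 with normexp, with median scaling, with the series matrix, with no filter, with probes above background on all 8 arrays, with 1 probe a gene name, and without both low-signal arrays, and it ranged from 0 to 0 when 1 array was left out. Over all probes the count of 89 became 543 with quantile normalization, 330 with array weights, 221 with slide as a random block, 1 with normexp and 0 elsewhere. For KO against WT in primary recipients, leaving out replicate 1 of WT primary gave 640 calls in place of 0, none of them a member; the lone WT array is then assumed to vary like the other groups. Signs turned for Tfam A_52_P595104 with quantile normalization (0.0735 between the KO groups and 0.0620 over both genotypes) and for Timm17b A_52_P474249 with normexp (0.19 over both genotypes); the cause was not tested. For slide as a random block, the correlation within slides was estimated at 0 in the 4-group fit and -0.088 in the additive fit. That setting thus left the 4-group results unchanged, and its extra calls came with a negative correlation. The replicate block gave 0 calls in place of 1 and moved the limma adjusted p of Timm17a A_52_P72378 to 0.0546. The arrays share only a number: differences between replicates 1 and 2 correlated at 0.15 between the primary groups and at -0.04 to 0.01 otherwise. Signal over background on the low-signal arrays limits every primary level.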
